A study of Mus musculus with 40 samples.

Results

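The 10 genes described here encode cytosolic and mitochondrial heat shock proteins and proteins that regulate them, namely Hspa1a, Hspa1b, Hspa8, Hsph1, Dnajb1, Hsp90aa1, Hspb1, Bag3, Hspe1 and Hspd1. They were chosen by gene name, and all 10 were present among the 20805 genes of the expression table. The study examined the midbrain of male mice, in which RNA sequencing of input RNA gave gene expression and immunoprecipitation of RNA fragments with an antibody to N6-methyladenosine (m6A) followed by sequencing (meRIP-seq) gave methylation peaks. The aSyn Tg mice were homozygous for A30P alpha-synuclein (aSyn) under the neuronal Thy-1 promoter and were 15 mo or 3 mo old, and the wild type (Wt) mice were C57BL/6J littermates of the same ages. The strain designation in the study's methods names another promoter and a further substitution, which the labels do not. The expression table held 5 libraries each of aSyn Tg 15 mo, aSyn Tg 3 mo and Wt 15 mo midbrain and 4 of Wt 3 mo midbrain, each from a different mouse. The comparisons asked how expression and methylation differed with age within a genotype and with the transgene at each age.

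Heat shock proteins are molecular chaperones, which bind unfolded or misfolded proteins and either help them to fold or pass them on for degradation. In the cytosol the HSP70 proteins bind short hydrophobic stretches, a J-domain protein such as Dnajb1 delivers the substrate and stimulates ATP hydrolysis, and an HSP110 protein such as Hsph1 exchanges the nucleotide so that the substrate is released. Many of these genes are induced by the transcription factor HSF1, which binds heat shock elements made of inverted repeats of a short unit. The chaperones of the cytosol are of interest in synucleinopathies because HSP70 and its partners act on aggregates of aSyn.

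The promoters are shown first, since heat shock elements are the sequence feature by which these genes are usually recognised. A pair of units was searched for as GAANNTTC or TTCNNGAA, each of which reads the same on both strands, and a run of 3 units as GAANNTTC followed directly by NNGAA, or TTCNNGAA followed directly by NNTTC, on either strand, so that every run also counts as a pair. The windows ran from 250 bases before to 50 bases after each start site in RefSeq (GRCm38.p6), and 8 of the 10 genes had a window. A pair of units was present for 7 of these 8 genes, against 17.0% of 27025 genes, and a run of 3 units for 3 of them, Hsph1, Hspe1 and Hspd1, against 0.662% of genes. The stretches below are printed on the strand of the gene with the motif in capitals.
Hspa1a, chr17:34972241-34972272, minus strand: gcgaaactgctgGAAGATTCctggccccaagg
Hspa1b, chr17:34959323-34959354, minus strand: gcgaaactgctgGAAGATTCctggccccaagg
Hsph1, chr5:149636350-149636381, minus strand: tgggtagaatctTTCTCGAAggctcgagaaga
Hsph1, chr5:149636276-149636312, minus strand: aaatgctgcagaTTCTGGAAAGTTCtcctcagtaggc
Hspb1, chr5:135887790-135887841, plus strand: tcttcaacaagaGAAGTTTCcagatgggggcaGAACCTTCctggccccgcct
Bag3, chr7:128523613-128523632, plus strand: tggatgggaccaGAAGTTTC
Hspe1, chr1:55088047-55088088, plus strand: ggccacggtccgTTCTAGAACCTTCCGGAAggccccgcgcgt
Hspd1, chr1:55088047-55088088, minus strand: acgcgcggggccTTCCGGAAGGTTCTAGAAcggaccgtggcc

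The stretches of Hspa1a and Hspa1b were identical, each with its element 104 bases before the start site. The run of 3 units of Hsph1 began after the start site, by 15 bases for 1 of its 2 start sites and by 36 bases for the other. The pair of Bag3 also lay after the start site, at the end of its window. Hspe1 and Hspd1 lie head to head, and their gene models overlapped by 112 bases, measured to the outer of the 2 start sites of Hspd1. A run of 4 units lay inside the gene model of Hspd1 and was read from opposite strands, 89 bases before the start site of Hspe1 and 144 bases before the inner start site of Hspd1. The window of the outer start site of Hspd1 held no pair of units. No pair of units was found in either window of Dnajb1, and none for the 9 of 11 listed chaperones of the endoplasmic reticulum (ER) that had a window. A match is a description of the letters only.

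The libraries held between 2163856 and 9195756 reads in genes, the fewest in aSyn Tg 15 mo library 5. Thy1, whose promoter drives the transgene, stood at 1351 CPM (counts scaled to a common library size) or more in every aSyn Tg library and at 334 CPM or less in every Wt library. All 6 markers of dopaminergic neurons were detected in every library, with summed levels of 281 to 506 CPM in aSyn Tg 15 mo, 312 to 488 CPM in aSyn Tg 3 mo, 269 to 475 CPM in Wt 15 mo and 307 to 461 CPM in Wt 3 mo midbrain. No gene of the marker lists was at 0 in any library. The sum of 5 microglial markers was 157 to 237 CPM in aSyn Tg 15 mo, 125 to 131 CPM in aSyn Tg 3 mo, 147 to 171 CPM in Wt 15 mo and 131 to 143 CPM in Wt 3 mo libraries, and the sum of 5 thalamic markers reached 1193 CPM in Wt 15 mo midbrain, against at most 691 CPM elsewhere. The part of these shifts in the results below was not tested, and in bulk tissue fewer cells of a type and less RNA per cell cannot be told apart.

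The levels of the 10 genes spanned a wide range. Per kilobase of exon and averaged over all 19 libraries, Hsp90aa1 (50.5 CPM per kb), the inducible cytosolic HSP90, and Hsph1 (49.6 CPM per kb), the HSP110 exchange factor, stood highest. Hspa8, the constitutive HSP70, followed at 29.3 CPM per kb. Dnajb1 (14.9), Hspd1 (14.3), Bag3 (10.3) and Hspe1 (7.30) were intermediate in CPM per kb. The small heat shock protein Hspb1 (1.15 CPM per kb) and the stress-inducible HSP70 genes Hspa1b (0.880 CPM per kb) and Hspa1a (0.695 CPM per kb) were lowest. These 3 genes were covered by 111 to 257 reads in all libraries together and did not pass the minimum mean of 50 normalised reads that the comparisons across genes used. Because of these counts, their values carry a large counting error. The length used for each gene was that of all its annotated exons joined, 7266 bases for Hsph1 and 3931 for Hsp90aa1. The single coding transcripts chosen for them have 3802 and 3281 bases, so the order of Hsph1 and Hsp90aa1 depends on the length. The values were also not corrected for reads that match several places, whose shares are given below.

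**Figure D1:**
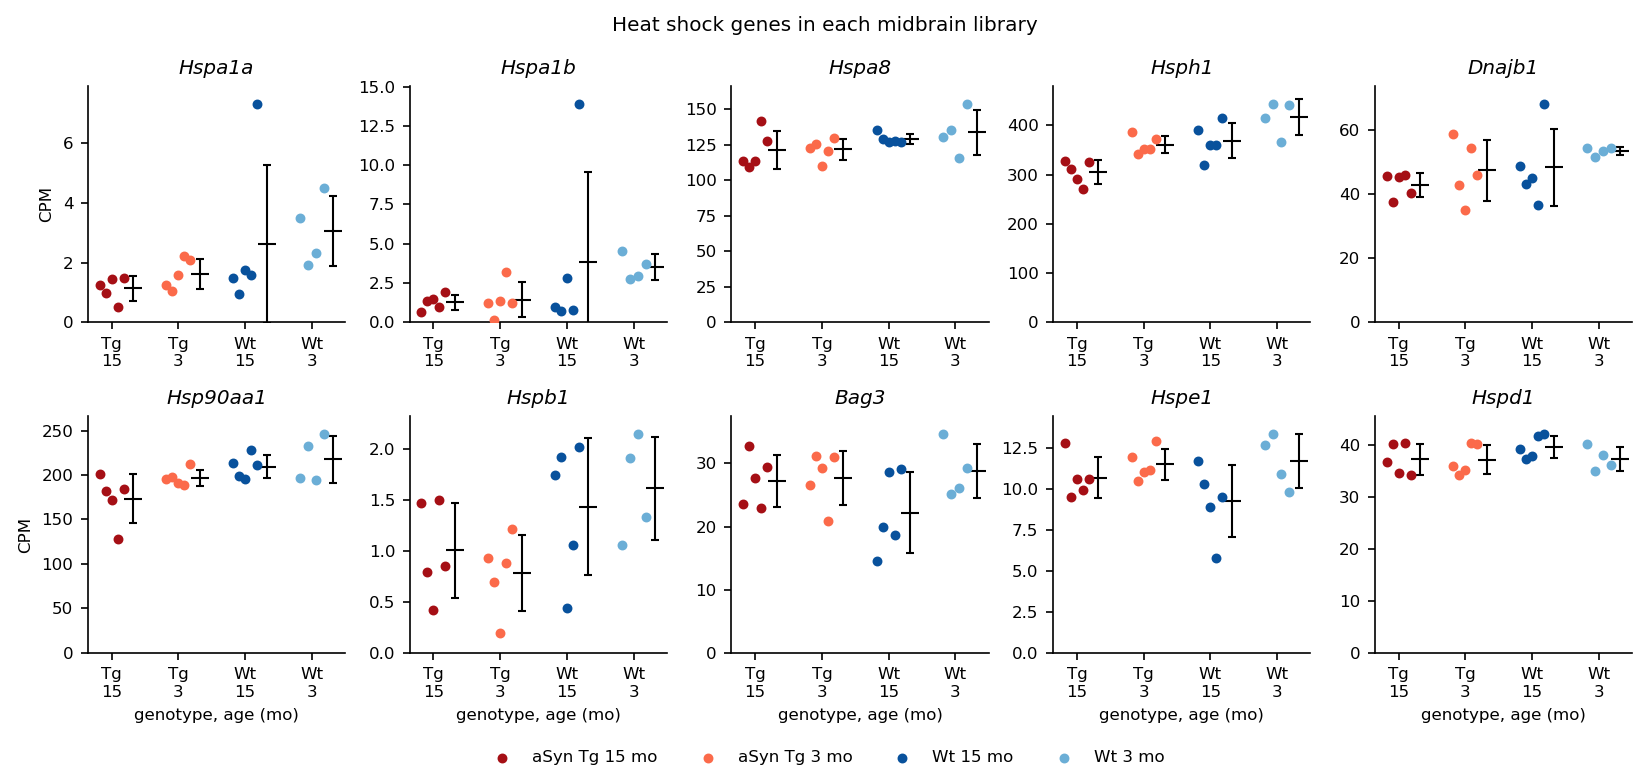
Level in CPM (vertical axes, starting at 0) of each of the 10 heat shock genes in each library (points), by genotype and age in months, with the mean and SD of each group in black (error bars that would pass the axes are cut there). All 5 aSyn Tg 15 mo libraries lie below all 5 aSyn Tg 3 mo libraries for Hsph1, and Wt 15 mo library 5 lies far above its group for Hspa1a and Hspa1b.

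None of the heat shock genes was called in any of the comparisons, where a gene had to reach both an adjusted p of 0.05 and a 1.2-fold change to be called. Between aSyn Tg 15 mo and aSyn Tg 3 mo midbrain, 0 of 7 tested members were called by edgeR's quasi-likelihood test, against 0.918% of the 11005 genes tested. The count was also 0 of 6 between Wt 15 mo and Wt 3 mo, against 0.361% of 10795 genes. It was 0 of 7 between aSyn Tg 3 mo and Wt 3 mo, against 0.844% of 11376 genes, and 0 of 6 between aSyn Tg 15 mo and Wt 15 mo, against 0.181% of 10471 genes. The test of whether the age difference differed between genotypes called 0 of 7 members, against 0.00917% of 10905 genes. At an unadjusted p under 0.05 the counts were 1, 1, 1, 2 and 0 in that order of comparisons, against 11.3%, 15.5%, 11.9%, 11.7% and 10.5% of all genes tested. DESeq2 called 1 member, Hsph1, between aSyn Tg 15 mo and Wt 15 mo, where it called 0.926% of all genes tested. The median log2 fold change of the tested members was -0.10, -0.09, -0.12, -0.15 and -0.03, whereas the median over all genes tested lay within 0.01 of 0 in each.

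Hsph1 had the smallest p of the tested members in each of the 4 pairwise comparisons. It measured 328, 311, 292, 271 and 326 CPM in the aSyn Tg 15 mo libraries. It measured 386, 343, 352, 351 and 372 CPM in the aSyn Tg 3 mo libraries. These 2 groups did not overlap, each of the 5 older aSyn Tg mice lying below each of the 5 younger ones, a pattern that 1.67% of 10905 genes showed in the same direction. In Wt midbrain the values were 391, 319, 360.0, 360.3 and 415 CPM at 15 mo. They were 415, 445, 366 and 441 CPM at 3 mo. The Wt groups overlapped, as did aSyn Tg and Wt libraries at each age.

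From low to high, the Hsph1 means were 305 ± 24.2 CPM in aSyn Tg 15 mo, 361 ± 17.7 in aSyn Tg 3 mo, 369 ± 35.9 in Wt 15 mo (SD, n = 5 each) and 417 ± 36.3 CPM in Wt 3 mo midbrain (SD, n = 4). The neighbours aSyn Tg 3 mo and Wt 15 mo differed by less than either SD. The log2 fold change was -0.24 (SE 0.058) for aSyn Tg 15 mo against aSyn Tg 3 mo, with an edgeR adjusted p of 0.0813. For aSyn Tg 15 mo against Wt 15 mo it was -0.28 (SE 0.074), adjusted p = 0.202 by edgeR, and 3 of 5 aSyn Tg libraries lay below every Wt library. For aSyn Tg 3 mo against Wt 3 mo it was -0.20 (SE 0.055), adjusted p = 0.0996 by edgeR, again with 3 of 5 aSyn Tg libraries below every Wt library. The age difference in Wt midbrain was -0.17 (SE 0.074), adjusted p = 0.280 by edgeR. The comparisons share groups, so these values are not independent of each other, and the difference between the age effects, -0.06 (SE 0.099) on the log2 scale, had an adjusted p of 0.877 by edgeR.

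For Hsph1 the side of the p threshold varied with the setting. With DESeq2 the adjusted p was 0.00447 between the ages of aSyn Tg mice and 0.0250 between genotypes at 3 mo, with log2 fold changes of -0.23 and -0.20 that were short of the 1.2-fold limit. Between genotypes at 15 mo DESeq2 gave -0.28 and an adjusted p of 0.0353, which was a call. In edgeR the adjusted p between the ages of aSyn Tg mice was 0.00641 with 1 factor of unwanted variation in the model and 0.00429 with 2. Between genotypes at 3 mo the edgeR adjusted p was 0.0302 with 2 factors, at a log2 fold change of -0.20. Without Wt 3 mo library 4 it was 0.0334, at -0.26. None of these 4 values reached the 1.2-fold limit. By limma voom the adjusted p was 0.0578 between the ages of aSyn Tg mice and 0.103 between genotypes at 3 mo.

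Hsp90aa1 binds near-native clients such as kinases and steroid receptors, and it receives many of them from HSP70. It measured 201, 182, 172, 128 and 185 CPM in aSyn Tg 15 mo libraries. It measured 213, 199, 195, 229 and 211 CPM in Wt 15 mo libraries. Of the aSyn Tg libraries, 4 of 5 lay below every Wt library, and the lowest value belonged to library 5, the library with the fewest reads. The log2 fold change was -0.27 (SE 0.092), with an edgeR adjusted p of 0.288, and without that library the log2 fold change was -0.19. At 3 mo the ranges were 188 to 212 CPM in aSyn Tg and 195 to 246 CPM in Wt midbrain, which overlapped (-0.13, edgeR adjusted p = 0.436). Between the ages the log2 fold changes were -0.17 in aSyn Tg and -0.05 in Wt midbrain, neither of them called, and without aSyn Tg 15 mo library 5 the value in aSyn Tg was -0.09.

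The constitutive HSP70 gene Hspa8 folds new proteins and uncoats clathrin vesicles at the synapse, and it varied little. Its means were 121 ± 13.5 CPM in aSyn Tg 15 mo, 122 ± 7.17 in aSyn Tg 3 mo, 129 ± 3.60 in Wt 15 mo (SD, n = 5 each) and 134 ± 15.9 CPM in Wt 3 mo midbrain (SD, n = 4). Of the neighbours in this order, aSyn Tg 3 mo and Wt 15 mo alone differed by more than the larger of their SDs. The log2 fold changes ran between -0.12 and -0.02 over the 4 comparisons, with the smallest edgeR adjusted p at 0.507.

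Dnajb1, the J-domain partner of the inducible HSP70, measured 45.8, 37.6, 45.3, 45.9 and 40.5 CPM in aSyn Tg 15 mo and 59.0, 42.9, 35.0, 54.4 and 46.2 CPM in aSyn Tg 3 mo midbrain. In Wt midbrain it measured 48.9, 43.1, 45.2, 36.6 and 68.4 CPM at 15 mo and 54.3, 51.7, 53.6 and 54.4 CPM at 3 mo. The Wt 3 mo libraries lay close together, whereas the other groups spread more widely, and the groups overlapped in each of the 4 comparisons. The log2 fold changes were -0.16 for aSyn Tg 15 mo against aSyn Tg 3 mo, -0.13 for Wt 15 mo against Wt 3 mo, -0.16 for aSyn Tg 3 mo against Wt 3 mo and -0.20 for aSyn Tg 15 mo against Wt 15 mo. None was called by edgeR (smallest adjusted p 0.611), and without Wt 15 mo library 5 the last of them was -0.02 and that of Wt 15 mo against Wt 3 mo was -0.31 (edgeR adjusted p = 0.124).

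The inducible HSP70 genes Hspa1a and Hspa1b are near copies of each other. They lie 9951 bases apart on chromosome 17, each with a single exon, and their coding sequences were identical at 99.4% of 1929 aligned positions, with 8 substitutions and 3 gap positions. Of all 50-base windows, the read length, 58.8% of those of Hspa1a also occurred in Hspa1b. The sources used here do not say how reads with several matches were handled, so reads could be split between the 2 genes, and their sum is given as well.

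Hspa1a measured 1.26, 0.991, 1.46, 0.499 and 1.49 CPM in aSyn Tg 15 mo and 1.24, 1.03, 1.58, 2.21 and 2.08 CPM in aSyn Tg 3 mo midbrain. It measured 1.497, 0.962, 1.74, 1.58 and 7.33 CPM in Wt 15 mo and 3.502, 1.91, 2.31 and 4.51 CPM in Wt 3 mo midbrain. A single library, Wt 15 mo library 5, held 40 of the 210 reads of the gene and stood above every other library. Hspa1b was highest in the same library, with 76 of its 257 reads and 13.9 CPM, against 0.722 to 2.83 CPM in the other 4 Wt 15 mo libraries. Its ranges were 0.630 to 1.92 CPM in aSyn Tg 15 mo, 0.172 to 3.24 CPM in aSyn Tg 3 mo and 2.73 to 4.56 CPM in Wt 3 mo midbrain. In the same library Dnajb1 (68.4 CPM) was the highest of all 19. Hsph1 (415 CPM), Hspd1 (42.1 CPM), Bag3 (29.1 CPM) and Hspb1 (2.02 CPM) were the highest of the Wt 15 mo group there. Hspa8 (127.17 CPM) was the lowest of that group, and Hsp90aa1 (211 CPM) and Hspe1 (9.53 CPM) lay inside its range.

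The fold changes of the inducible HSP70 genes that involve Wt 15 mo midbrain depended on this library. Fitted without the filter on counts, Hspa1b had a log2 fold change of 0.23 between Wt 15 mo and Wt 3 mo midbrain with it and -1.38 without it (edgeR adjusted p = 0.156). Hspa1a had -0.13 with it and -1.08 without it (edgeR adjusted p = 0.218). Between aSyn Tg 15 mo and Wt 15 mo midbrain, Hspa1b had -1.66 with it and -0.07 without it, and Hspa1a -1.19 with it and -0.26 without it. At 3 mo, where this library played no part, Hspa1a had a log2 fold change of -0.90 (edgeR adjusted p = 0.226) and Hspa1b of -1.27 (edgeR adjusted p = 0.171) in aSyn Tg against Wt midbrain. For the sum of both genes, 4 of 5 aSyn Tg 3 mo libraries lay below every Wt 3 mo library (3.08 ± 1.54 CPM in aSyn Tg, n = 5, and 6.56 ± 1.86 CPM in Wt, n = 4, SD). A fit with this sum as 1 gene and a count minimum of 10, added after seeing the data, gave a log2 fold change of -1.09 and an edgeR adjusted p of 0.0943. No gene of the pair was called under any of these settings.

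**Figure D2:**
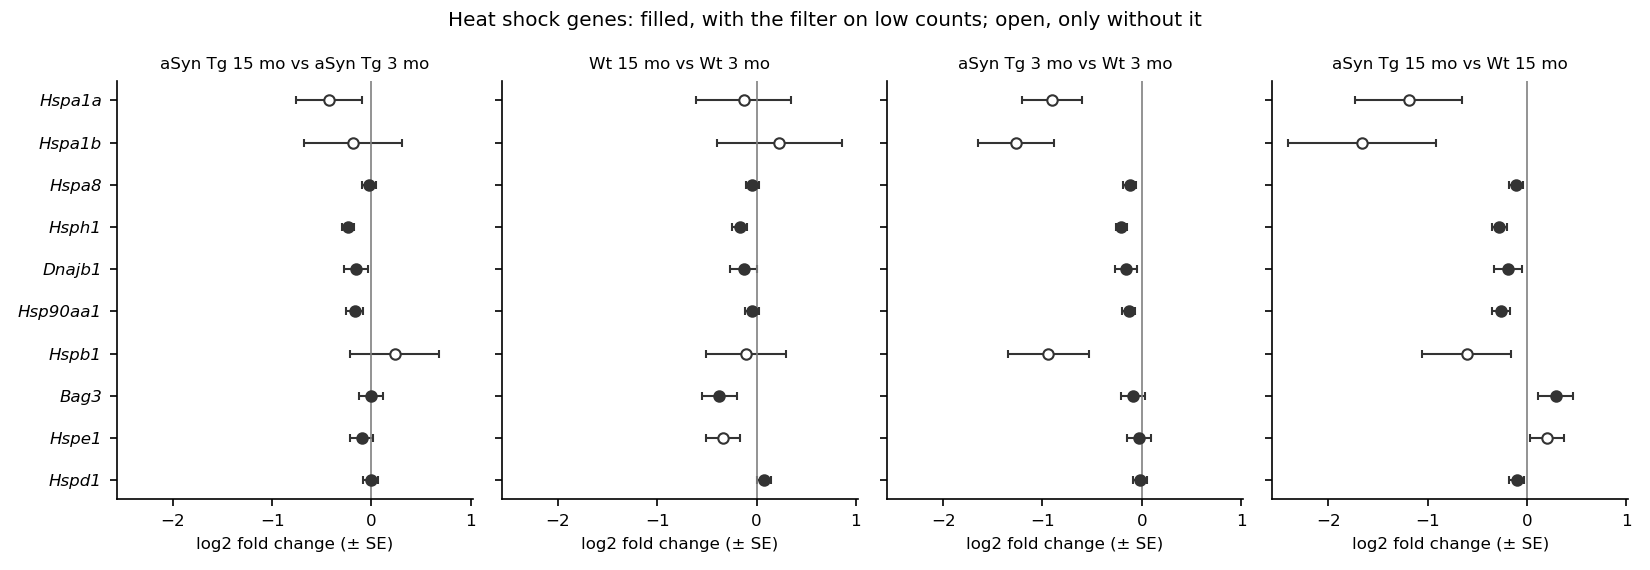
Log2 fold change (horizontal axis) with its SE for each heat shock gene (rows) in each of the 4 comparisons (panels), from edgeR. Filled points passed the filter on low counts and lie between -0.37 and 0.29, and open points come from the fit without the filter and have wide errors. None passed the threshold.

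The small heat shock protein Hspb1 holds unfolded proteins without using ATP. It measured between 0.416 and 1.497 CPM in aSyn Tg 15 mo, 0.198 and 1.21 CPM in aSyn Tg 3 mo, 0.435 and 2.02 CPM in Wt 15 mo, and 1.06 and 2.15 CPM in Wt 3 mo midbrain. At 3 mo, 4 of 5 aSyn Tg libraries lay below every Wt library, with a log2 fold change of -0.94 (SE 0.40) and an edgeR adjusted p of 0.421.

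Bag3 couples HSP70 and small heat shock proteins to selective autophagy of aggregates. It measured 23.5, 32.7, 27.7, 23.0 and 29.4 CPM in aSyn Tg 15 mo and 14.5, 19.97, 28.7, 18.7 and 29.1 CPM in Wt 15 mo midbrain. The means were 27.8 ± 4.27 CPM in aSyn Tg 3 mo (SD, n = 5) and 28.8 ± 4.30 CPM in Wt 3 mo midbrain (SD, n = 4). In Wt 15 mo midbrain, 3 of 5 libraries lay below every Wt 3 mo library, and the log2 fold change was -0.37 (SE 0.18, edgeR adjusted p = 0.332). Bag3 was the only tested member with a positive log2 fold change between aSyn Tg 15 mo and Wt 15 mo midbrain (0.29, SE 0.18, edgeR adjusted p = 0.555). Hspe1, which missed the count minimum there, also had a positive value (0.20) in the fit without the filter. For Bag3 the difference between the age effects, 0.37 (SE 0.23) on the log2 scale, was not called either (edgeR adjusted p = 0.609). The spread of Bag3 within groups (SD 0.28 on the log2 scale) was above that of 94.8% of genes.

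Hspd1 (HSP60) and Hspe1 (HSP10) form the chaperonin of the mitochondrial matrix. Hspd1 was the steadiest member, with means of 37.2 ± 2.97 CPM in aSyn Tg 15 mo, 37.2 ± 2.83 in aSyn Tg 3 mo, 39.6 ± 2.20 in Wt 15 mo (SD, n = 5 each) and 37.3 ± 2.25 CPM in Wt 3 mo midbrain (SD, n = 4). Its spread within groups, an SD of 0.097 on the log2 scale, was above that of 24.4% of genes. Hspe1 had 10.7 ± 1.26 CPM in aSyn Tg 15 mo, 11.5 ± 0.951 in aSyn Tg 3 mo, 9.26 ± 2.20 in Wt 15 mo (SD, n = 5 each) and 11.7 ± 1.64 CPM in Wt 3 mo midbrain (SD, n = 4). The log2 fold changes of Hspd1 ran between -0.10 and 0.08 over the 4 comparisons, and none was called. Those of Hspe1 were -0.10 between the ages of aSyn Tg mice and -0.03 between genotypes at 3 mo, neither called. In the other pairwise comparisons Hspe1 missed the count minimum and was not tested. Fitted without the filter, it had -0.34 between the ages of Wt mice and 0.20 between genotypes at 15 mo, neither called. Reads of these genes were less certain in origin, since 58.5% of the 50-base windows of Hspd1 and 46.5% of those of Hspe1 also occurred elsewhere in the genome. The share was 75.7% for Hspa8, 73.1% for Hsp90aa1 and 72.1% for Hspb1, but 0 for Hsph1 and Bag3.

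Pairs of members that work together or lie side by side were examined for joint variation between mice. Over the 19 libraries, after removing each group's mean, 6 pairs were tested with a permutation test within groups and Benjamini-Hochberg adjustment over the 6. Hspa1a and Hspa1b had a Pearson r of 0.86 (permutation p = 0.00071, adjusted p = 0.00426) and a Spearman rho of 0.78 (permutation p = 0.00036, adjusted p = 0.00216). Without the 2 libraries farthest from the median on the x axis, Wt 15 mo libraries 2 and 5, r was 0.61, and the part of reads shared between the near-identical copies was not tested. Hsp90aa1 and Hsph1 had an r of 0.67 (permutation p = 0.00251, adjusted p = 0.00753) and a rho of 0.65 (permutation p = 0.00623, adjusted p = 0.0187). Without aSyn Tg 15 mo libraries 2 and 5 the r was 0.58, with a permutation p of 0.0344 and an adjusted permutation p of 0.103 over 17 libraries.

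The other 4 pairs did not pass. Dnajb1 and Hspa1b had an r of 0.62 (permutation p = 0.0659, adjusted p = 0.132) and a rho of 0.33 (permutation p = 0.240, adjusted p = 0.382). The mitochondrial partners Hspe1 and Hspd1, which share a promoter region, had an r of -0.16 (permutation p = 0.509, adjusted p = 0.604) and a rho of -0.14 (permutation p = 0.586, adjusted p = 0.657). Hspa8 and Hsph1 had an r of 0.14 (permutation p = 0.604, adjusted p = 0.604) and a rho of 0.12 (permutation p = 0.657, adjusted p = 0.657). Hspb1 and Bag3 had an r of -0.43 (permutation p = 0.138, adjusted p = 0.207) and a rho of -0.32 (permutation p = 0.255, adjusted p = 0.382). Of all 45 pairs of members, 30 had a positive r, with a median of 0.07.

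**Figure D3:**
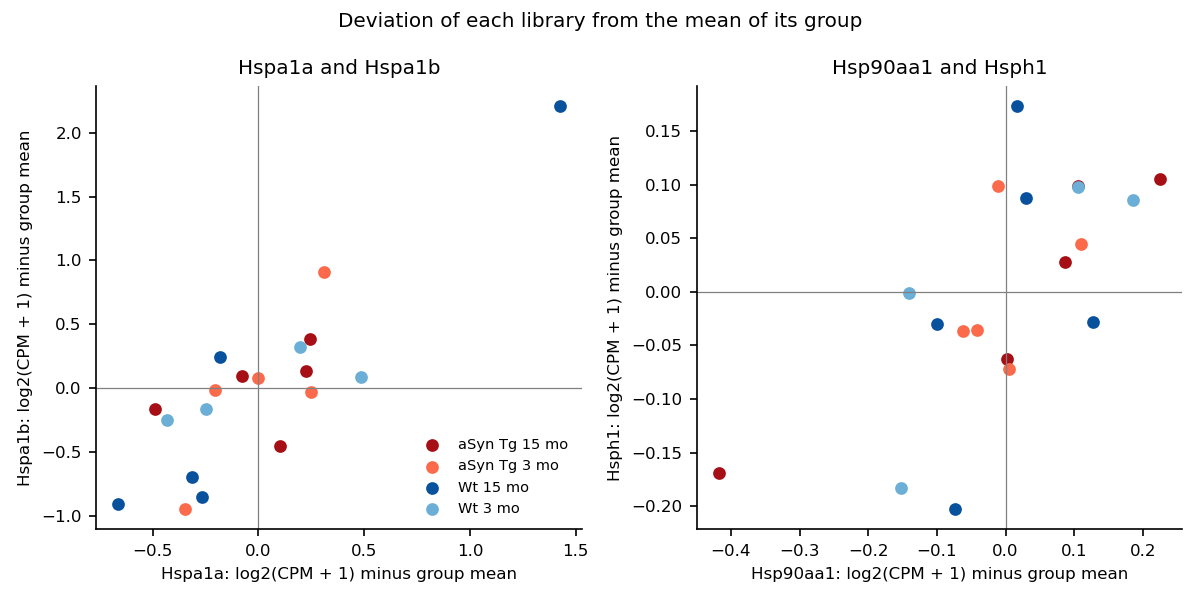
Deviation of each library from the mean of its group in log2(CPM + 1), for Hspa1a (x axis) and Hspa1b (y axis) on the left and Hsp90aa1 (x axis) and Hsph1 (y axis) on the right, with 1 point per library coloured by group. The point at the upper right of the left panel is Wt 15 mo library 5, and the point at the lower left of the right panel is aSyn Tg 15 mo library 5.

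The 6 other genes whose deviations followed the mean score of the 10 members most closely, among 10898 genes, were Gm26945 (r = 0.79), Txn2 (0.77), 5330406M23Rik (0.77), Sgk1 (0.75), Eva1a (0.75) and Nfkbia (0.75). Txn2 encodes mitochondrial thioredoxin, Sgk1 a kinase induced by glucocorticoids and Nfkbia the inhibitor of NF-kappaB. These r are descriptions over 19 libraries that differ in depth and in the level of thalamic markers, and the part of these differences in the r was not tested. Without Wt 15 mo libraries 4 and 5, the lowest and the highest in the score, Gm26945 (0.78) and 5330406M23Rik (0.73) stayed high in r, and Txn2 (0.49), Sgk1 (0.53), Eva1a (0.50) and Nfkbia (0.48) were lower in r.

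The rest of the chaperone network was counted in lists by role. Of the transcription factors, Hsf1 had log2 fold changes between -0.09 and 0.05 over the 4 comparisons, and 0 of 4 tested heat shock factors were called in any. Among HSP90 proteins and their co-chaperones, 0 of 10 were called, although 9 of 10 had a negative log2 fold change between aSyn Tg 3 mo and Wt 3 mo midbrain, with a median of -0.07. The median over all genes tested there was -0.006, and the share of all genes with a negative value was not counted. Fkbp4, a co-chaperone of HSP90 for steroid receptors, had an edgeR adjusted p of 0.0365 there with a log2 fold change of -0.17, short of the fold limit. Chordc1, another HSP90 co-chaperone, had -0.24 (edgeR adjusted p = 0.0627) at 3 mo and -0.38 (edgeR adjusted p = 0.110) at 15 mo between genotypes. Hsf1, Fkbp4 and Chordc1 are named here after their values were seen. The 7 other HSP70 and HSP110 genes had no call, and neither had the J-domain proteins or the HSP70 cofactors. The 8 tested subunits of the cytosolic chaperonin CCT and the 12 tested mitochondrial chaperones had none either.

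The calls in the chaperone lists lay outside the 10 genes, and every one of them was between aSyn Tg 3 mo and Wt 3 mo midbrain. Of the 11 ER chaperones, 8 were lower in aSyn Tg and 0 higher, with a median log2 fold change of -0.33, whereas 0 of 7 tested heat shock members were called, with a median of -0.12. Over all genes, 25 of 11376 tested were called lower in that comparison. Sdf2l1, a component of an ER chaperone complex, had -1.03 (SE 0.12, edgeR adjusted p = 0.000732). Hspa5 (BiP), the HSP70 of the ER, had -0.41 (SE 0.049, edgeR adjusted p = 0.000895), and the disulphide isomerases Pdia4 and Pdia6 had -0.42 and -0.33 (edgeR adjusted p = 0.00128 and 0.00559). Without Wt 3 mo library 3 the count was 5 rather than 8. Between genotypes at 15 mo, 0 of 10 tested ER chaperones were called, and all 10 had a negative log2 fold change, with a median of -0.19. Hspa5 had -0.38 at 15 mo, near its value at 3 mo, and 0 of 11 ER chaperones were called for the interaction. Cryab, a small heat shock protein of glia and muscle, was also lower in aSyn Tg at 3 mo (-0.29, SE 0.054, edgeR adjusted p = 0.0168). It was called in 17 of 22 alternative settings. Of the 7 genes in the list of small heat shock proteins, 2 were tested there, and 1 of the 2 had a negative log2 fold change. The ER list, like the 10 genes, was chosen with earlier results of these data known, so its count is a description and not independent support. The difference between the ER list and the 10 genes was not tested.

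Methylation was read from lists of consensus peaks, 1 list per group, in which each peak has a single fold enrichment of m6A immunoprecipitate over input and no replicate, so no test was possible. One of the 4 lists names no group and was taken as aSyn Tg 15 mo because the other 3 are named. The 10 genes held 23 peaks at 7 sites on 5 genes, and 4 sites, 3 on Dnajb1 and 1 on Bag3, were listed in all 4 groups. No peak was listed on Hsph1, Hspa8, Hspb1, Hspe1 or Hspd1 in any group. Of the 7 members among 10900 expressed genes, 2 carried a peak in aSyn Tg 15 mo, 2 in aSyn Tg 3 mo, 3 in Wt 15 mo and 3 in Wt 3 mo midbrain. Over all expressed genes the share was 52.5% in aSyn Tg 15 mo, 52.2% in aSyn Tg 3 mo, 54.4% in Wt 15 mo and 54% in Wt 3 mo midbrain.

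The m6A mark is placed mostly at adenosines in a short core, of which GGAC is the most frequent form. The core was present in 74.4% to 75.5% of peaks in the 4 lists, and each of the 7 sites held at least 1. The 20-base stretches below show some of these cores, on the strand of the RNA, with GGAC in capitals. The 3 cores of the third site of Dnajb1 and the 1 of Hspa1b are not printed, and of the 3 cores of Bag3 only 1 is.
Dnajb1 exon 1, at the start codon, chr8:83608332-83608351: atgggcaaGGACtactatca
Dnajb1 exon 1, chr8:83608422-83608441: taccacccGGACaagaacaa
Dnajb1 exon 2, chr8:83609969-83609988: gaaggcatGGACattgatga
Dnajb1 exon 2, chr8:83610033-83610052: tgaactttGGACgttcccgc
Bag3 exon 4, chr7:128546083-128546102: accctgaaGGACgagctgat
Hsp90aa1 exon 5, chr12:110694103-110694122: gccgatttGGACgagaaatc
Hspa1a, chr17:34970253-34970272: gccgtggaGGACgagggtct
Hspa1a, chr17:34970331-34970350: aaggccgaGGACgaggtgca

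On Dnajb1 the first site covered the 211 coding bases of exon 1 in every group. It also took in 139 bases of the 5′ untranslated region in aSyn Tg 3 mo, 79 bases in Wt 3 mo and 19 bases in both 15 mo groups, and its remaining bases lay outside the exons of the transcript used. Its fold enrichment was 5.02 in aSyn Tg 15 mo, 8.7 in aSyn Tg 3 mo, 6.28 in Wt 15 mo and 3.55 in Wt 3 mo midbrain. These are single values without a replicate, from peaks of 270 bases in aSyn Tg 15 mo to 390 bases in aSyn Tg 3 mo. Whether they differ with age or genotype was not tested. Of the 3 sites, this one had the widest range of values. The second site lay within the coding part of exon 2, with 6.07 in aSyn Tg 15 mo, 6.13 in aSyn Tg 3 mo, 6.07 in Wt 15 mo and 4.55 in Wt 3 mo midbrain. The third site ran over the stop codon into the 3′ untranslated region of exon 3, with 6.9 in aSyn Tg 15 mo, 5.27 in aSyn Tg 3 mo, 5.71 in Wt 15 mo and 5.33 in Wt 3 mo midbrain. At the first 2 sites the lowest value was that of Wt 3 mo.

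The site on Bag3 lay in exon 4, the last exon, from the coding sequence into the 3′ untranslated region. It was listed as 2 peaks in aSyn Tg 15 mo (4.69 and 5.8-fold) and in Wt 15 mo (5.09 and 5.49-fold), and as 1 peak in aSyn Tg 3 mo (6.69-fold) and in Wt 3 mo midbrain (4.78-fold). The site was thus listed in 2 parts in both lists of older mice and in 1 part in both lists of younger mice. The lists hold no replicate, and how often other sites were split in this way was not counted. Whether the split goes with age was not tested. Hsp90aa1 had a peak in the coding part of exon 5 only in the Wt lists, at 2.69 in Wt 15 mo and 2.01 in Wt 3 mo midbrain, which were among the weakest 12.4% and 3.75% of peaks in those lists. Hspa1a had a peak in its coding sequence in aSyn Tg 15 mo (4.81) and Wt 3 mo midbrain (3.21), and Hspa1b had one at the stop codon in Wt 3 mo midbrain (5.53). The input reads under these 2 genes were few, as given above, and reads of their near-identical coding sequences could be split between them. Which of the 2 copies the reads under a peak came from was not tested. Whether methylation was absent where no peak is listed was not tested either.

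**Figure D4:**
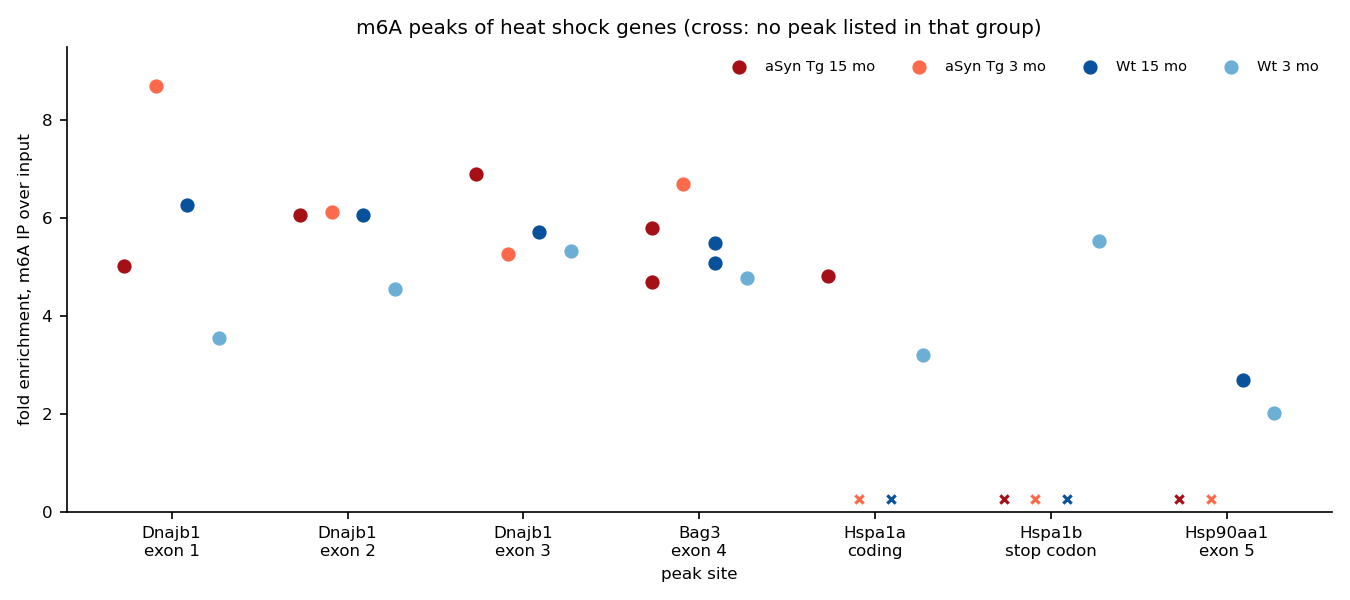
Fold enrichment of m6A immunoprecipitate over input (vertical axis, from 0) for each peak on a heat shock gene, by site (horizontal axis) and group (colour), where a cross marks a group whose list holds no peak there. The 3 sites of Dnajb1 and that of Bag3 are filled in all 4 groups, with the widest range, 3.55 to 8.7, at exon 1 of Dnajb1.

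No member appeared in any of the 6 lists of differentially methylated peaks, which together covered all pairs of groups and held between 1.18% and 5.65% of the expressed genes. The sites of Dnajb1 and Bag3 were therefore among the peaks that were listed in every group and not listed as differential.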

How the data were processed

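Per the study's methods, the authors filtered single-end reads of 50 cycles by quality with Cutadapt, mapped them to mm10 with STAR, counted reads per gene with featureCounts and tested with DESeq2 and RUVseq, whereas the submitters' processing notes name mm9 and DESeq. Kit names also differ between these sources. The deposited expression values (a signal scaled by size factors) were reads divided by a factor per library: 100% of 395295 values came out whole (tolerance 0.01), so whole reads were recovered, 2 of the 19 columns through another sheet. All columns per sample were mapped, with 0 left out. Columns holding the authors' fold changes and p-values were not used. For m6A, the authors used MeTPeak for peaks and exomePeak for differences, and the deposited fold enrichment (a ratio of immunoprecipitate to input) was read as given.

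Gene tests used edgeR 4.0.16 (R 4.3.3) with TMM scaling, a mean normalised count of at least 50, Benjamini-Hochberg adjustment over all genes tested and calls at an adjusted p up to 0.05 with a 1.2-fold change or more, on the 2 groups compared or on all 4 for the interaction. CPM were TMM-scaled. Fits were tested on simulated data. The test had been planned on deposited counts with 5 libraries per group. The alternatives were DESeq2 1.42.0, limma 3.58.1 (voom, or trend on deposited values), RLE size factors, a minimum of 10 or none, all groups in 1 fit, 1 or 2 factors of unwanted variation, a replicate block, the sum of Hspa1a and Hspa1b, and leaving out each library. Correlations used log2(CPM + 1) with group means removed and 100000 permutations within groups. The depth, 2163856 to 9195756 reads per library, limits the scarce genes most, and p-values measure the spread between mice of a group.

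All 10 members were named. Of each other chaperone list, up to 4 called genes per direction and comparison with the smallest adjusted p were named, plus the 6 genes closest to the members' score. Members and lists were chosen with earlier results of these data known. Library numbers are those of the table, and for aSyn Tg they are not all those of the labels. The check of the transgene's own level is not reported here.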

Additional observations from a re-analysis of the deposited data

Results flagged for a closer look

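Of 40 groups of libraries tested for a value standing apart by Dixon's criterion, which chance meets in about 1 group in 20, 3 were flagged, and every one of them was in Wt 15 mo midbrain. Hspa1a stood at 7.33 CPM in library 5, against 0.962 to 1.74 CPM in the other 4 libraries. Hspa1b stood at 13.9 CPM in the same library, against 0.722 to 2.83 CPM in the others. Hspa8 stood at 136 CPM in library 1, against 127.2 to 128.7 CPM in the others, in a group with an SD of 3.60 CPM. No difference between the age effects of the 2 genotypes passed the test for any member.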

How the results depend on the processing

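The count of called members stayed at 0 in each comparison under every setting except the following. DESeq2 called 1 member between aSyn Tg 15 mo and Wt 15 mo midbrain (Hsph1, -0.28, adjusted p = 0.0353), among 97 of 10471 genes. With 2 factors of unwanted variation edgeR called 2 there, Hsph1 (-0.28, adjusted p = 0.0189) and Hsp90aa1 (-0.29, adjusted p = 0.0321), among 262 genes, and 1 between Wt 15 mo and Wt 3 mo midbrain, Bag3 (-0.41, adjusted p = 0.0315), among 490 of 10795. The cause was not tested. Leaving out each library in turn gave 0 to 0 calls in every comparison. Without aSyn Tg 15 mo library 5 the adjusted p of Hsph1 between the ages of aSyn Tg mice was 0.0421 by edgeR, at a log2 fold change of -0.20 that missed the fold limit. The m6A sites numbered 7 at an overlap of at least 50%, and the minimum fold enrichment of 2 lay below every member peak (lowest 2.01) and could change nothing. The correlation of Hsp90aa1 and Hsph1, 0.67, was 0.58 without the 2 libraries farthest from the median, and its adjusted permutation p was then 0.103.

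Library numbers were not read as pairs, since each library came from a different mouse. Deviations of libraries with the same number correlated between -0.28 and 0.33. Libraries of different numbers were not compared in this way, so whether the number carries a shared effect was not tested. With the replicate block the number of members called was 0 in each comparison, and no paired reading is made of it. The ER chaperones called lower in aSyn Tg at 3 mo numbered 4 with the block (7 on the same libraries without it) and 5 with all 4 groups in 1 fit, against 8. That count was an alternative added after seeing the data, as were the fits without the filter that left out library 5 of Wt 15 mo or of aSyn Tg 15 mo, the fit of the summed Hspa1a and Hspa1b at a minimum of 10 and the fit on the block's libraries without the block.

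Over all genes, calls ran between 43 and 319 across settings, leaving out a library included, for aSyn Tg 15 mo against aSyn Tg 3 mo (101 as reported), 1 and 490 for Wt 15 mo against Wt 3 mo (39, with 1 without Wt 3 mo library 4 and 332 without Wt 15 mo library 3), 13 and 232 for aSyn Tg 3 mo against Wt 3 mo (96), 11 and 262 for aSyn Tg 15 mo against Wt 15 mo (19), and 0 and 139 for the interaction (1). Depth limits Hspa1a, Hspa1b and Hspb1, whose fold changes come from a few reads per library.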
